A study of Danio rerio with 29 samples.

Results

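The genes described here are 56 zebrafish genes of DNA repair and of the p53 pathway, out of 32520 genes in the count tables. They were taken from a list of symbols by a rule that used no measured value, but the list was chosen with earlier results of these data known. Of 56 symbols, 55 were found: ung matched 2 genes, called ung_1 and ung_2, and brca1 was not analysed here. By role, 10 genes act in interstrand crosslink repair, 11 in homologous recombination or as helicases, and 5 in end joining. A further 9 act in base excision and single-strand break repair, 4 in mismatch repair, and 6 in nucleotide excision repair or translesion synthesis. The remaining genes are 4 checkpoint kinases and 7 regulators or targets of p53.

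The RNA came from adult zebrafish, each library from either a whole brain or a body whose brain had been taken out. The fish were homozygous for the CRISPR allele CCSER1_P471 (M) or for CCSER1_S48Y* (S), both in ccser1, or were wild-type siblings (WT) from crosses of heterozygotes. There were 4 M, 4 S and 3 WT brain libraries, and 6 M, 6 S and 6 WT body libraries. The labels give neither sex nor exact age, do not say which line the WT fish came from, and do not say whether a brain and a body came from the same fish. Whether the libraries of a group are different fish is not stated either, and a p-value here reads the variation among libraries, which may be technical.

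Cells repair a broken or altered base, a mismatch, a bulky lesion, a crosslink between strands and a chromosome break by separate sets of proteins, many of which are made in larger amounts in dividing and germ cells. The kinases Atm and Atr sense damage, Chek1 and Chek2 pass the signal on, and the transcription factor p53 switches on genes such as mdm2, cdkn1a and ccng1. Fish oocytes store transcripts of repair and cell-cycle genes for the embryo, and in zebrafish the loss of fancl or brca2 is known to end in male fish through p53-dependent loss of germ cells.

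Brains had 7445865 to 9521735 counts each and bodies 9450422 to 11674882. Levels are given as CPM, counts scaled to library size within a tissue, and changes as log2 values with their standard error (SE). The targeted gene ccser1 fell in bodies by 0.69 in M (SE 0.243, edgeR adjusted p = 0.0341) and by 0.70 in S (SE 0.242, edgeR adjusted p = 0.0299). In the same comparisons 20.7% and 21.1% of all genes were lower. Its body levels overlapped, at 1.77 to 3.64 CPM in M, 2.02 to 4.64 CPM in S and 3.13 to 6.51 CPM in WT. In brains ccser1 changed by -0.17 in M and 0.19 in S, and passed the test in neither. The neuronal gene elavl3 had 571 to 661 CPM in M brains, 607 to 628 in S brains and 514 to 523 in WT brains. The library of S brain 3 stood apart, with 1524 CPM summed over 9 muscle genes and 4071 CPM over 14 epidermis genes, against at most 48.9 and 680 CPM in every other brain. Photoreceptor and pineal genes, 24 in number, summed to 250.7 to 420 CPM in M brains, 235 to 408 CPM in S brains and 29.4 to 34.0 CPM in WT brains, and 17 of 19 tested were higher in M and 18 in S. Their part in the brain results below was not tested. A list of 26 oocyte genes, described with the body results, summed to 4.18 to 6.58 CPM in the 11 brains.

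fan1 went opposite ways in the brains and bodies of M fish. It encodes a nuclease that is recruited to crosslinked DNA by ubiquitylated Fancd2 and Fanci. In brains fan1 had 39.8, 27.7, 27.8 and 28.0 CPM in M, then 12.2, 14.3, 16.1 and 13.8 CPM in S, and 16.1, 13.3 and 14.8 CPM in WT. Every M brain lay above every S and WT brain, while the S brains overlapped the WT brains. The log2 change of fan1 was 1.07 in M brains against WT (SE 0.155, edgeR adjusted p = 0.000906) and 1.12 in M against S brains (SE 0.141, edgeR adjusted p = 0.000267). In S brains against WT it was -0.06 (SE 0.155, edgeR adjusted p = 0.859).

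In bodies the lowest, median and highest levels of fan1 were 3.42, 5.05 and 6.95 CPM in M, 5.13, 6.49 and 8.70 CPM in S, and 8.47, 15.3 and 18.9 CPM in WT. All 6 M bodies and 5 of 6 S bodies lay below the lowest WT body. fan1 fell by 1.49 in M bodies (SE 0.210, edgeR adjusted p = 6.14e-05) and by 1.08 in S bodies (SE 0.205, edgeR adjusted p = 0.000731). The difference between tissues was tested itself, as the change in body minus the change in brain: it was -2.60 in M (SE 0.308, edgeR adjusted p = 3.12e-05) and -1.09 in S (SE 0.303, edgeR adjusted p = 0.0252). The S difference was lost when 5 bodies low in gh1, described below, were left out (edgeR adjusted p = 0.134). Both body falls were lost beside an oocyte score, also described below, in which WT and mutant bodies did not overlap.

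**Figure D1:**
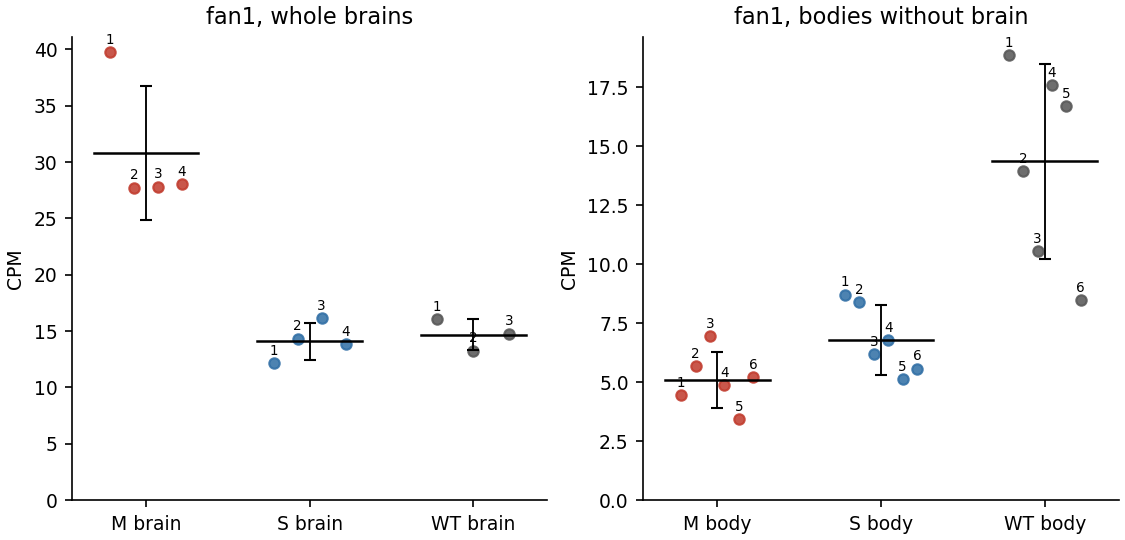
CPM of fan1 in each library of brains (left) and bodies (right), by line; numbers are replicate numbers, bars the mean and whiskers the SD. The 4 M brains sit at 27.7 to 39.8 CPM, above all S and WT brains, and the 6 M bodies sit below all WT bodies.

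In brains few of these genes passed the test. Of 49 genes tested in M brains against WT, fan1 rose and blm, brca2, ercc1 and apex1 fell; 1 of 49 higher is 2.04%, against 4.93% of all 18733 genes tested, and 4 of 49 lower is 8.16%, against 5.19% of all genes. In S brains 0 genes rose, against 5.59% of all genes, and ercc1 alone fell, 1 of 49 or 2.04%, against 4.73% of all genes. An unadjusted p below 0.05 was reached by 14 of 49 in M and 10 of 49 in S. Over all 18733 genes it was reached by 4908 in M and 4875 in S. By DESeq2 the counts of higher genes were 3 in M and 1 in S, against 1145 and 1273 over all genes. Every M brain lay above every WT brain for 5 genes and below for 6, against 11.1% and 11.0% of all genes, and every S brain for 6 and 4, against 12.5% and 11.6%. The median log2 change over the 49 genes was -0.04 in M and -0.09 in S, against 0.01 and 0.00 over all genes.

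blm encodes the helicase that dissolves joined chromosomes after recombination. In brains blm had 5.58, 8.61, 5.62 and 7.26 CPM in M, then 17.6, 16.7, 12.8 and 12.1 CPM in S, and 11.2, 15.1 and 16.2 CPM in WT. All 4 M brains lay below every other brain, and S and WT overlapped. blm fell by 1.06 in M against WT (SE 0.203, edgeR adjusted p = 0.00536) and by 1.12 in M against S (SE 0.190, edgeR adjusted p = 0.00242). In the order of genes of the RefSeq table for the assembly GRCz12tu, blm and fan1 lie on the same chromosome with 47 genes between them. Other pairs of the 56 genes lie closer, such as lig3 and rad51d with 0 genes between them and ercc2 and bbc3 with 3.

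brca2 encodes a mediator of homologous recombination at broken DNA. It had 6.53, 2.55, 3.79 and 3.35 CPM in M brains, then 13.7, 17.0, 14.1 and 15.9 CPM in S brains, and 11.4, 8.37 and 7.03 CPM in WT brains. The 3 groups did not overlap: M was lowest, WT between and S highest. brca2 fell by 1.14 in M against WT (SE 0.265, edgeR adjusted p = 0.0150) and by 1.91 in M against S (SE 0.246, edgeR adjusted p = 0.000369). The M call against WT was lost without WT brain 1 (edgeR adjusted p = 0.0580) and with only the 2 groups in the fit (edgeR adjusted p = 0.0521).

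ercc1 encodes the partner of the nuclease Ercc4 (XPF), which cuts beside bulky lesions and crosslinks. Its levels were 8.90, 6.48, 9.27 and 6.92 CPM in M brains, 7.47, 5.25, 6.22 and 5.81 CPM in S brains, and 11.0, 16.0 and 12.1 CPM in WT brains. The brains of both lines lay below all WT brains and overlapped each other; the photoreceptor and pineal sums separated both lines from WT as well. ercc1 fell by 1.07 in S (SE 0.197, edgeR adjusted p = 0.00428) and by 0.72 in M (SE 0.195, edgeR adjusted p = 0.0301). Only the S call held without each library in turn; the M call was lost without M brain 2, WT brain 2 or WT brain 3 (edgeR adjusted p = 0.0782, 0.141 and 0.0588).

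apex1 encodes the endonuclease that cuts at sites that have lost their base. It had 47.3, 49.8, 51.1 and 50.8 CPM in M brains, 54.0, 55.1, 50.6 and 63.7 CPM in S brains, and 60.6, 62.4 and 67.9 CPM in WT brains. M and WT did not overlap, and S overlapped both. The fall of apex1 in M was small, 0.36 (SE 0.0868, edgeR adjusted p = 0.0195), and was lost without M brain 1 (edgeR adjusted p = 0.0521) or WT brain 3 (edgeR adjusted p = 0.0806).

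fanca, part of the complex that attaches ubiquitin to Fancd2 and Fanci, had a larger change that did not pass. Its levels were 4.75, 4.78, 6.01 and 2.01 CPM in M brains, 1.39, 4.59, 0.838 and 1.16 CPM in S brains, and 1.80, 1.29 and 1.29 CPM in WT brains. All 4 M brains lay above the WT brains, and 1 S brain reached the M range. The log2 change in M was 1.58 (edgeR adjusted p = 0.085), at counts of 149 reads in all M and 35 in all WT brains. fanca is named here because its difference between tissues passed in M.

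Between the lines, 5 of 49 genes were higher and 2 of 49 lower in M than in S brains, which is 10.2% and 4.08%, against 4.64% and 5.41% of all genes. Every M brain lay above every S brain for 5 of 49 genes, against 8.68% of all genes, and below for 3, against 9.05%. The 5 called higher were fan1, lig3, ercc4, dclre1c and wrn, and the 2 called lower were brca2 and blm. lig3, the ligase that seals single-strand breaks, had 35.6, 35.6, 41.4 and 28.5 CPM in M brains and 27.0, 19.6, 25.0 and 25.4 CPM in S brains, a log2 difference of 0.54 (SE 0.130, edgeR adjusted p = 0.0178). ercc4 had 13.5, 13.4, 14.0 and 11.2 CPM in M brains and 4.56, 8.20, 8.26 and 9.41 CPM in S brains, a log2 difference of 0.77 (SE 0.199, edgeR adjusted p = 0.0253). The lines did not overlap in either gene, whereas WT brains, at 25.1 to 30.8 CPM of lig3 and 9.38 to 13.6 CPM of ercc4, overlapped both lines in both genes.

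dclre1c encodes Artemis, the nuclease that trims broken ends before joining, and had 28.1, 25.2, 24.9 and 19.8 CPM in M brains and 13.2, 12.4, 18.7 and 20.3 CPM in S brains. The lines overlapped in 1 M brain, and the log2 difference was 0.60 (SE 0.160, edgeR adjusted p = 0.0285). wrn, a helicase with a nuclease domain, had 20.8 to 25.1 CPM in M and 15.9 to 18.1 CPM in S brains, a log2 difference of 0.42 (SE 0.118, edgeR adjusted p = 0.0353). The wrn call was lost without any 1 of the M brains 1 to 3 or of the 4 S brains, and fan1, brca2 and blm held in every alternative run. The call was lost in 2 of 18 alternatives for lig3 (edgeR adjusted p up to 0.0577), in 4 for ercc4 (up to 0.0646) and in 6 for dclre1c (up to 0.0888), mostly with 1 M or S brain left out. Without S brain 3, 4 genes were higher and 2 lower, against 638 and 795 of all 18533 genes.

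**Figure D2:**
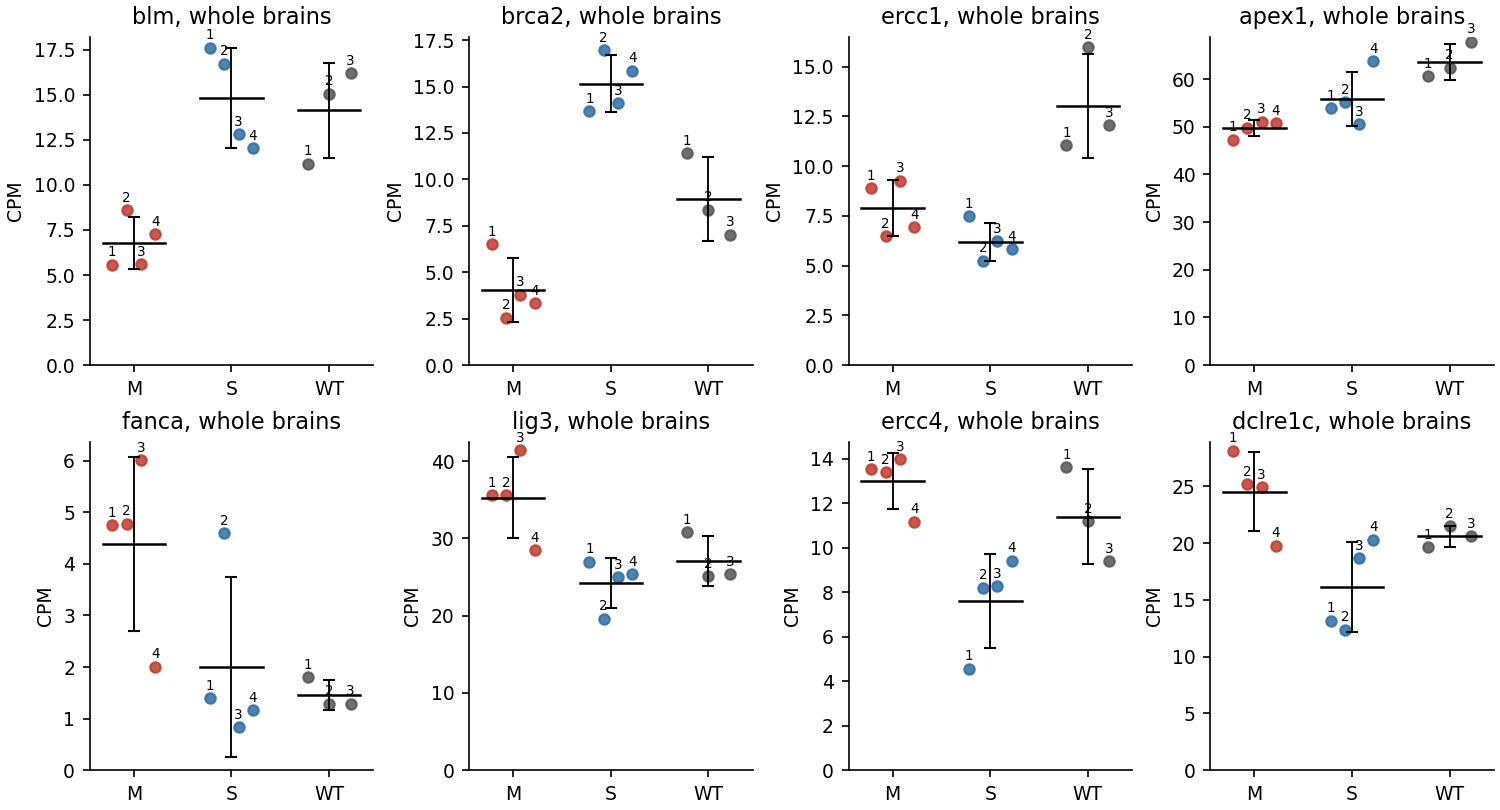
CPM in each brain library of 8 genes, by line, with the mean and SD; numbers are replicate numbers. In blm and brca2 the M brains lie lowest, in ercc1 both lines lie below WT, and in lig3 and ercc4 M lies above S.

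None of the 7 p53 genes passed the edgeR test in brains, in either line or between the lines. Of these 7, an unadjusted p below 0.05 was reached by 1 in M and 2 in S against WT. Over all 18733 genes it was reached by 4908 in M and 4875 in S. The log2 changes in M and S brains were -0.13 and -0.10 for mdm2, the ubiquitin ligase that removes p53, and -0.31 and -0.28 for its partner mdm4. They were 0.12 and 0.06 for ccng1, cyclin G1, and 0.16 and 0.26 for sesn1, a stress-induced inhibitor of TORC1 signalling. For the cell death gene bbc3 (Puma) they were 0.10 and 0.34, for sesn3, a relative of sesn1, 0.07 and 0.22, and for cdkn1a (p21), the inhibitor of cyclin-dependent kinases, -0.35 and -0.29. cdkn1a had 1.19, 1.06, 0.784 and 5.14 CPM in M brains, 1.77, 3.50, 1.08 and 2.22 CPM in S brains and 3.21, 2.45 and 2.23 CPM in WT brains, so 1 M brain stood above all others; without it the M change was -1.36 (edgeR adjusted p = 0.0656). The kinases atm, atr and chek2 changed by -0.15, 0.03 and 0.15 in M and by -0.09, -0.15 and 0.63 in S, and none passed; chek1 was too low in brains to be tested.

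In bodies most of these genes fell in both lines. Of 54 genes tested, 42 fell and 0 rose in M bodies, which is 77.8% lower, against 20.7% of all 20240 genes tested lower and 12.4% higher. In S bodies 42 fell and 3 rose, 77.8% and 5.56%, against 21.1% and 15.7% of all genes. In M an unadjusted p below 0.05 was reached by 43 of 54, against 8989 of all 20240 genes. DESeq2 called 0 higher and 43 lower in M, against 2974 and 4642 over all genes. The median log2 change was -0.99 in M and -0.92 in S, against 0.05 and 0.02 over all genes. Every M body lay below every WT body for 19 of 54 genes, against 8.14% of all genes, and every S body for 11 of 54, against 6.24%. Every M body lay above every WT body for 0 genes, against 3.21% of all genes, and every S body for 2, against 4.86%. Both lines were compared with the same 6 WT bodies.

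Markers of oocytes moved with this fall. The 26 oocyte genes, the fixed list without the broadly expressed marcksl1 genes, which were set aside after values were seen, summed to 2.59, 13.2 and 149.7 CPM at the lowest, median and highest in M bodies. In S bodies they summed to 2.59, 16.1 and 1499 CPM, and in WT bodies to 2142, 7186 and 12530 CPM. The 2 marcksl1 genes set aside did not fall in this way. Their means were 116.5 and 115.1 CPM in M, 158 and 142.3 CPM in S and 87.3 and 124.3 CPM in WT bodies. Of the 26 genes of the whole oocyte list that were tested, 24 were lower in M and 22 in S bodies, and 1 was higher in S. That is 92.3% and 84.6% lower, against 20.7% and 21.1% of all genes. Several of the 26 passed the count filter only through the WT bodies. figla, for example, averaged 0.25 CPM in M, 1.57 CPM in S and 27.2 CPM in WT bodies. For such genes a fall was nearly the only possible outcome. Replication and mitosis genes, 48 in number, summed to 560 to 693 CPM in M, 655 to 1136 CPM in S and 1110 to 3913 CPM in WT bodies. In whole bodies fewer cells of a type and less RNA per cell cannot be told apart. With the oocyte score as a covariate 1 gene was lower in M and 2 in S, and with the replication and mitosis score 2 were lower in each. Calls fell away over all 20240 genes too: 26 were lower in M and 120 in S with the oocyte score, and 54 and 246 with the replication and mitosis score, against 4191 in M and 4267 in S with neither. The oocyte score was the mean log2 CPM over the whole list of 28 genes, with the marcksl1 genes kept. The score of each WT body, 4.77 to 7.25, was above that of every mutant body, at most 4.55, so score and genotype cannot be told apart in this fit.

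**Figure D3:**
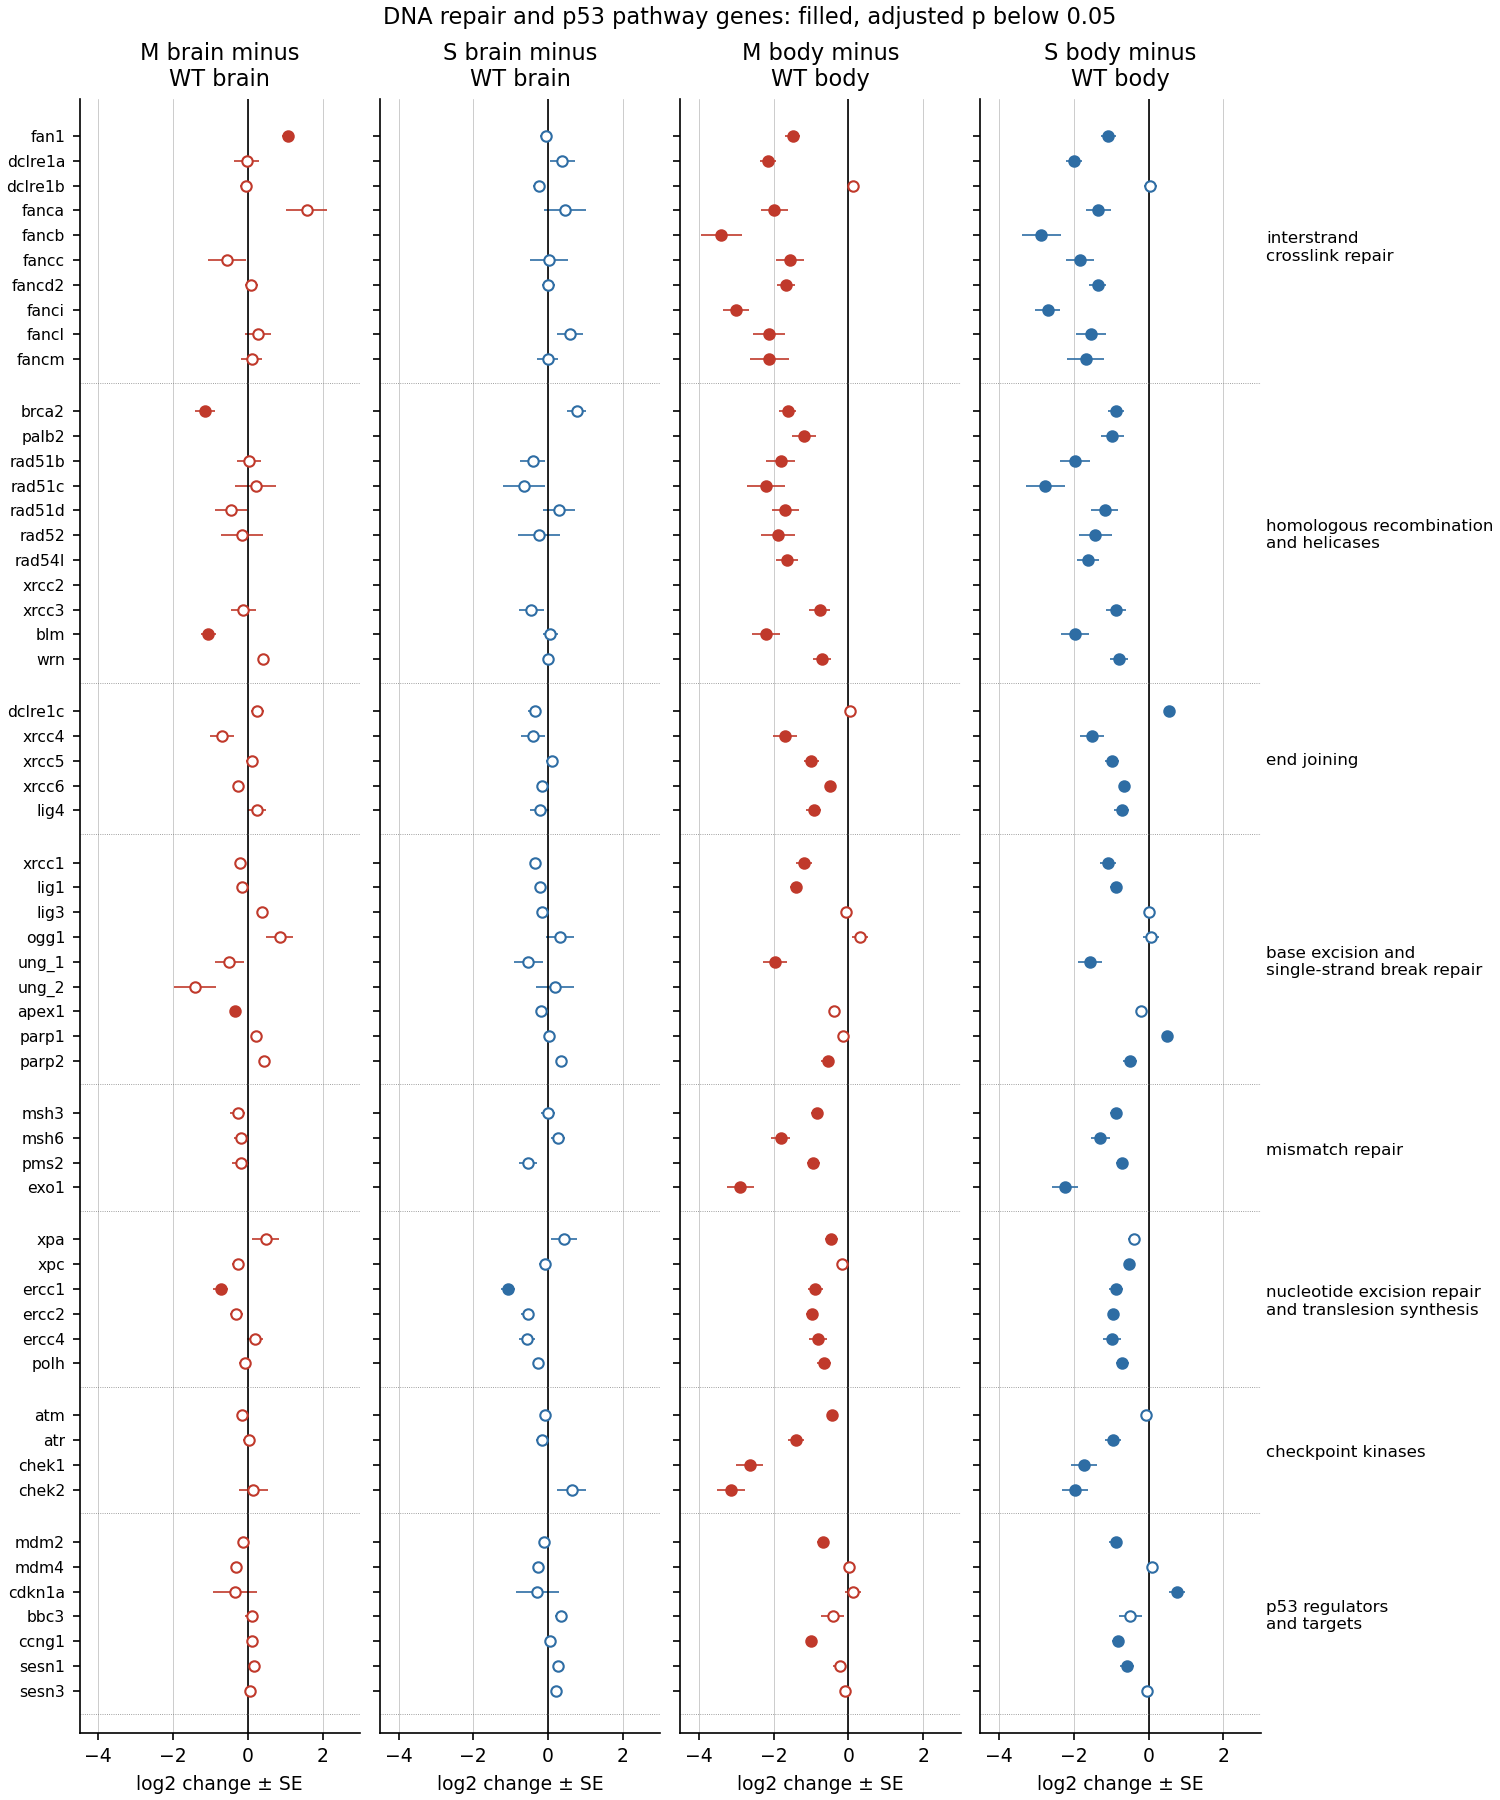
Log2 change with SE of every gene tested, by role (rows), in M and S brains and M and S bodies against WT (columns); filled points passed at an adjusted p below 0.05. In bodies 42 of 54 genes of each line are filled to the left of 0, while in brains 5 points are filled in M and 1 in S.

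Crosslink repair genes fell in bodies apart from dclre1b, a nuclease of telomere ends. In each line 9 of 10 fell, or 90%, against 20.7% of all genes in M and 21.1% in S. The median log2 change was -2.04 in M and -1.61 in S. dclre1a, a nuclease that digests past crosslinks, had a lowest, median and highest level of 3.44, 5.69 and 6.72 CPM in M, 4.11, 5.96 and 6.98 CPM in S and 13.4, 21.7 and 33.1 CPM in WT bodies. Neither line overlapped WT, and dclre1a fell by 2.15 in M (SE 0.219, edgeR adjusted p = 4.08e-06) and by 1.99 in S (SE 0.217, edgeR adjusted p = 6.25e-06). It was the only crosslink repair gene that passed beside the oocyte score, in S (edgeR adjusted p = 0.0271) but not in M (edgeR adjusted p = 0.0988).

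fanci, the partner of Fancd2, had 1.59, 2.39 and 2.82 CPM in M bodies, 1.60, 2.78 and 4.57 CPM in S bodies and 6.60, 19.2 and 31.3 CPM in WT bodies. Again neither line overlapped WT. fanci fell by 3.02 in M (SE 0.346, edgeR adjusted p = 1.61e-05) and by 2.70 in S (SE 0.337, edgeR adjusted p = 2.72e-05), and fancd2 by 1.67 and 1.35. The WT bodies spread widely in these genes: WT bodies 3 and 6, with the lowest oocyte sums of the 6 at 2704 and 2142 CPM, were also the lowest 2 WT bodies for 38 of the 42 genes that fell in M and for 38 of the 42 in S. That is 90.5% of the genes in each line, against 71.4% and 67.1% of all genes that fell.

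All 10 genes of homologous recombination and the helicases tested fell in both lines, against 20.7% of all genes in M and 21.1% in S. The medians over the 10 were -1.67 in M and -1.30 in S. brca2 had 4.60, 5.78 and 7.35 CPM in M, 6.60, 9.53 and 15.5 CPM in S and 11.1, 18.7 and 24.1 CPM in WT bodies. M did not overlap WT, while the highest S bodies did. brca2 fell by 1.62 in M (SE 0.227, edgeR adjusted p = 6.09e-05). rad54l, a motor protein that aids strand exchange, fell by 1.62 in S (SE 0.291, edgeR adjusted p = 0.000484). blm, which fell in M and not in S brains, had 3.10, 4.59 and 5.94 CPM in M, 3.34, 4.48 and 9.06 CPM in S and 5.81, 20.5 and 34.2 CPM in WT bodies, and only WT body 6 lay within the range of M bodies.

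Mismatch repair genes fell in 4 of 4 cases in both lines, against 20.7% of all genes in M and 21.1% in S. exo1, the exonuclease that removes the mismatched strand, had 0.686 to 2.33 CPM in M, 1.70 to 3.64 CPM in S and 4.52 to 17.5 CPM in WT bodies. Neither line overlapped WT, and exo1 fell by 2.89 in M (SE 0.363, edgeR adjusted p = 2.81e-05) and by 2.25 in S (SE 0.346, edgeR adjusted p = 0.000151). Of 6 genes of nucleotide excision repair and translesion synthesis, 5 or 83.3% fell in each line, against the same shares of all genes. The medians over the 6 were -0.73 in M and -0.78 in S. ercc2, a helicase that opens the DNA around a lesion, fell by 0.95 in S (SE 0.150, edgeR adjusted p = 0.000182), with medians of 7.79 CPM in S and 15.3 CPM in WT bodies that did not overlap.

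End joining and base excision genes were more mixed. Of 5 end joining genes 4 fell in each line, and of 8 base excision genes 4 fell in each. That is 80% and 50%, against 20.7% of all genes in M and 21.1% in S. lig1, the ligase of replication and long-patch repair, fell by 1.40 in M (SE 0.163, edgeR adjusted p = 1.65e-05), with medians of 13.7 CPM in M and 36.4 CPM in WT bodies. lig3 did not pass, with medians of 24.4 CPM in M, 24.3 CPM in S and 24.3 CPM in WT bodies.

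dclre1c and parp1 rose in S bodies. dclre1c had 7.59, 8.32 and 9.31 CPM in S and 5.35, 5.51 and 6.88 CPM in WT bodies, with no overlap, and rose by 0.55 (SE 0.139, edgeR adjusted p = 0.00554). parp1, which binds strand breaks and marks them with poly(ADP-ribose), had 30.0, 33.3 and 39.1 CPM in S and 18.8, 24.6 and 28.8 CPM in WT bodies, with no overlap, and rose by 0.49 (SE 0.144, edgeR adjusted p = 0.0132). Every S body also lay above every M body in both genes, at 4.53 to 7.51 CPM of dclre1c and 13.5 to 28.0 CPM of parp1 in M. Without the 5 bodies low in gh1 the rises were 0.50 and 0.35 and did not pass (edgeR adjusted p = 0.0668 and 0.0647). Calls over all genes in S went from 7445 to 3091 in that run.

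The checkpoint kinases fell in 4 of 4 cases in M and 3 of 4 in S bodies. That is 100% and 75%, against 20.7% and 21.1% of all genes. chek2 had 0.905, 1.21 and 1.72 CPM in M, 1.62, 2.64 and 4.74 CPM in S and 4.71, 11.5 and 20.3 CPM in WT bodies. M did not overlap WT, and 1 S body reached the lowest WT bodies. chek2 fell by 3.13 in M (SE 0.373, edgeR adjusted p = 1.94e-05) and by 1.97 in S (SE 0.344, edgeR adjusted p = 0.000391). chek1 fell by 2.64 and 1.73 and atr by 1.40 and 0.95 in M and S.

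atm moved less: it had 11.6, 12.9 and 14.6 CPM in M, 15.3, 16.2 and 19.5 CPM in S and 15.8, 17.6 and 20.6 CPM in WT bodies. M lay below every S and WT body, and S overlapped WT. atm fell by 0.45 in M (SE 0.0992, edgeR adjusted p = 0.00199) and had a log2 change of -0.07 in S (edgeR adjusted p = 0.576).

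Of the 7 p53 genes 2 were lower and 0 higher in M bodies, and 3 lower and 1 higher in S bodies. That is 28.6% and 42.9% lower, against 20.7% and 21.1% of all genes. In S the share higher is 14.3%, against 15.7%. The p53 targets mdm2 and ccng1 fell in both lines. mdm2 had 27.2, 23.3, 26.3, 32.2, 38.9 and 28.2 CPM in M bodies 1 to 6, then 27.9, 20.9, 22.7, 26.7, 25.2 and 29.5 CPM in S bodies, and 39.0, 36.5, 68.3, 42.0, 35.4 and 60.6 CPM in WT bodies. ccng1 had 535, 609 and 708 CPM at the lowest, median and highest in M, 572, 662 and 792 CPM in S and 934, 1067 and 1735 CPM in WT bodies. In both genes S lay below all WT bodies, and in M only body 5 reached the WT range, and only for mdm2.

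mdm2 fell by 0.68 in M (SE 0.164, edgeR adjusted p = 0.00390) and by 0.88 in S (SE 0.165, edgeR adjusted p = 0.000626). ccng1 fell by 0.99 in M (SE 0.146, edgeR adjusted p = 8.12e-05) and by 0.83 in S (SE 0.145, edgeR adjusted p = 0.000407). These were the only 2 of the 42 genes lower in each line whose highest WT bodies were 3 and 6, the bodies with the lowest oocyte sums; among all genes that fell the share was 1.91% in M and 2.88% in S. ccng1 had 1735 and 1516 CPM in those bodies and 934 to 1114 CPM in the other WT bodies.

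With the oocyte score as a covariate the change of mdm2 was -1.36 in M (SE 0.257, edgeR adjusted p = 0.0264) and -1.44 in S (SE 0.227, edgeR adjusted p = 0.00203). These values are larger than without the score. No mutant body reached the WT range of that score, so the fit extrapolates and cannot separate score from genotype. ccng1 had changes of -1.12 and -0.93 there and did not pass (edgeR adjusted p = 0.143 and 0.0686). With the replication and mitosis score both genes passed in both lines, and they were the 2 genes called. The sums of that list separated M bodies, at most 693 CPM, from WT bodies, at least 1110 CPM. Of the S bodies only S body 2, at 1136 CPM, lay above the lowest WT body. The next highest, S body 3, had 977 CPM. That fit has the same limit for M and nearly the same limit for S.

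The other p53 genes gave no common direction. cdkn1a had 14.2, 18.6 and 34.7 CPM in M, 27.9, 35.2 and 42.2 CPM in S and 16.4, 19.0 and 28.5 CPM in WT bodies. It rose by 0.76 in S (SE 0.209, edgeR adjusted p = 0.00888), where 5 of 6 bodies lay above all WT bodies, and had a log2 change of 0.12 in M (edgeR adjusted p = 0.681). sesn1 had 116, 169.6 and 243 CPM in S and 211, 255 and 306 CPM in WT bodies and fell by 0.57 in S (SE 0.179, edgeR adjusted p = 0.0186); in M it changed by -0.23 (edgeR adjusted p = 0.313). mdm4, bbc3 and sesn3 changed by 0.02, -0.42 and -0.09 in M and by 0.09, -0.48 and -0.03 in S and did not pass. Without the bodies low in gh1 the S calls of cdkn1a and sesn1 were lost (edgeR adjusted p = 0.0819 and 0.0702). That run dropped WT bodies 1, 2 and 5 but no S body, and calls over all genes in S went from 7445 to 3091.

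**Figure D4:**
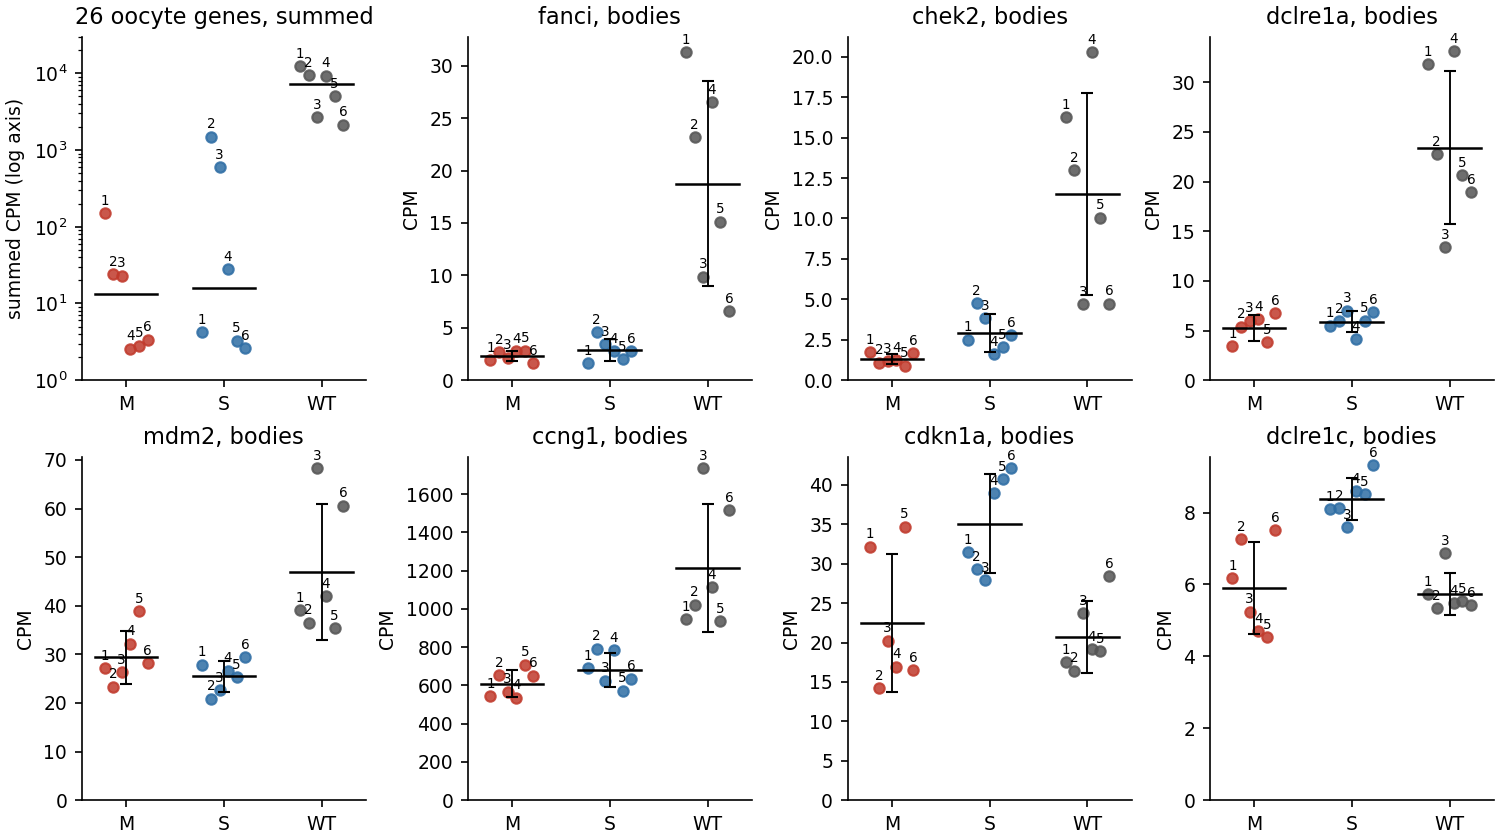
Levels in each body library by line: the sum of 26 oocyte genes (log axis, bar at the median) and the CPM of 7 genes (bar at the mean, whiskers SD); numbers are replicate numbers. WT bodies 3 and 6 are the lowest WT bodies in the oocyte sum, fanci and chek2 and the highest in mdm2 and ccng1.

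Hormone transcripts split the bodies in another way. The pituitary growth hormone gene gh1 was below 1 CPM in 5 bodies, M bodies 2 and 5 and WT bodies 1, 2 and 5, a threshold chosen after values were seen. Without them 24 of 53 of these genes were lower in M and 25 in S, and 0 rose in S. Of all 20745 genes tested there, 1670 were lower and 753 higher in M, and 1829 lower and 1262 higher in S. fan1 still fell by 1.19 in M (edgeR adjusted p = 0.0119) and by 0.84 in S (edgeR adjusted p = 0.0263). mdm2 and ccng1 fell by 1.01 and 1.35 in M and by 1.16 and 1.09 in S there (edgeR adjusted p = 0.00134 and 6.37e-05 in M, 9.29e-05 and 0.000137 in S). WT bodies 3 and 6, the highest WT bodies for both genes, were among the WT bodies kept. M body 5, the highest M body for mdm2, was left out. How far the libraries kept set the size of these falls was not tested. The 3 WT bodies with the largest oocyte sums, WT bodies 1, 2 and 4, include 2 of the 5 left out, and the part of oocyte content in the difference was not tested.

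Between the lines, M bodies were lower than S bodies for 4 of 54 genes and higher for 0, which is 7.41% lower, against 3.81% of all genes lower and 4.30% higher. An unadjusted p below 0.05 was reached by 9 of 54, against 4526 of all 20240 genes. DESeq2 called 2 higher, against 1333 over all genes. The 4 lower genes were parp1, by 0.63 (SE 0.144, edgeR adjusted p = 0.00953), atm, by 0.38 (SE 0.0992, edgeR adjusted p = 0.0227), dclre1c, by 0.50 (SE 0.139, edgeR adjusted p = 0.0295), and brca2, by 0.75 (SE 0.227, edgeR adjusted p = 0.0478). parp1 passed in every alternative run, while the call was lost in 6 of 28 for atm (edgeR adjusted p up to 0.125), in 10 for dclre1c (up to 0.0856) and in 19 for brca2. Every M body lay below every S body for 5 of 54 genes, against 3.11% of all genes, and above it for 0, against 3.10%. In brains M was higher than S for dclre1c and lower than S for brca2.

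The body fall was then set against brain, where the oocyte genes were near 0. In M 22 of 56 genes had a lower change in body than in brain and 0 a higher one, 39.3%, against 8.69% of all 22442 genes lower and 3.64% higher. Only 49 of the 56 passed the count filter in brains alone. For the others the brain side of the difference rests on low counts. In M DESeq2 called 2 higher and 22 lower, against 2055 and 1960 over all genes. An unadjusted edgeR p below 0.05 was reached by 37 of 56 in M, against 6070 of all 22442 genes. In S 17 were lower and 1 higher, 30.4% and 1.79%, against 6.42% and 2.75%. Crosslink repair gave 8 of 10 lower in M and 6 of 10 in S, homologous recombination and helicases 3 of 11 in each, and nucleotide excision repair and translesion synthesis 0 of 6 in each. In brains alone 8 of the 10 crosslink repair genes and 8 of the 11 of recombination and helicases could be tested. With RLE factors in place of TMM the median over all genes was 0.15 in M and 0.07 in S, against 0.00 and -0.06 with TMM. The split of all genes was then 1470 higher and 1494 lower in M, against 816 and 1951 with TMM, and 961 higher and 1082 lower in S, against 617 and 1440. With RLE 2 of these genes were higher and 18 lower in M, and 1 higher and 12 lower in S.

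fanca differed between the tissues of M by -3.58 (SE 0.662, edgeR adjusted p = 0.00125), with body medians of 0.907 CPM in M and 3.39 CPM in WT. That difference holds the change of 1.58 in M brains, which did not pass, as well as the body fall. chek2 differed by -3.32 in M (SE 0.602, edgeR adjusted p = 0.00109) and by -2.66 in S (SE 0.575, edgeR adjusted p = 0.00641). dclre1a differed by -2.17 in M (SE 0.416, edgeR adjusted p = 0.00166) and by -2.43 in S (SE 0.412, edgeR adjusted p = 0.00109). ccng1 differed by -1.13 in M (SE 0.228, edgeR adjusted p = 0.00224) and by -0.94 in S (SE 0.227, edgeR adjusted p = 0.0118). Of the genes that fell in M brains, blm, brca2, ercc1 and apex1, none passed the test of body minus brain in M, where the differences were -1.17 (SE 0.532), -0.50 (SE 0.402), -0.19 (SE 0.295) and -0.05 (SE 0.205). In S brains brca2 lay above every WT brain, with a log2 change of 0.76 that did not pass, and blm overlapped WT. The differences in S were -1.70 for brca2 (SE 0.385, edgeR adjusted p = 0.00850) and -2.10 for blm (SE 0.526, edgeR adjusted p = 0.0140). That of brca2 holds its higher level in S brains as well as its body fall. dclre1c was the gene with a higher change in S bodies than in S brains, by 0.83 (SE 0.218, edgeR adjusted p = 0.0177).

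**Figure D5:**
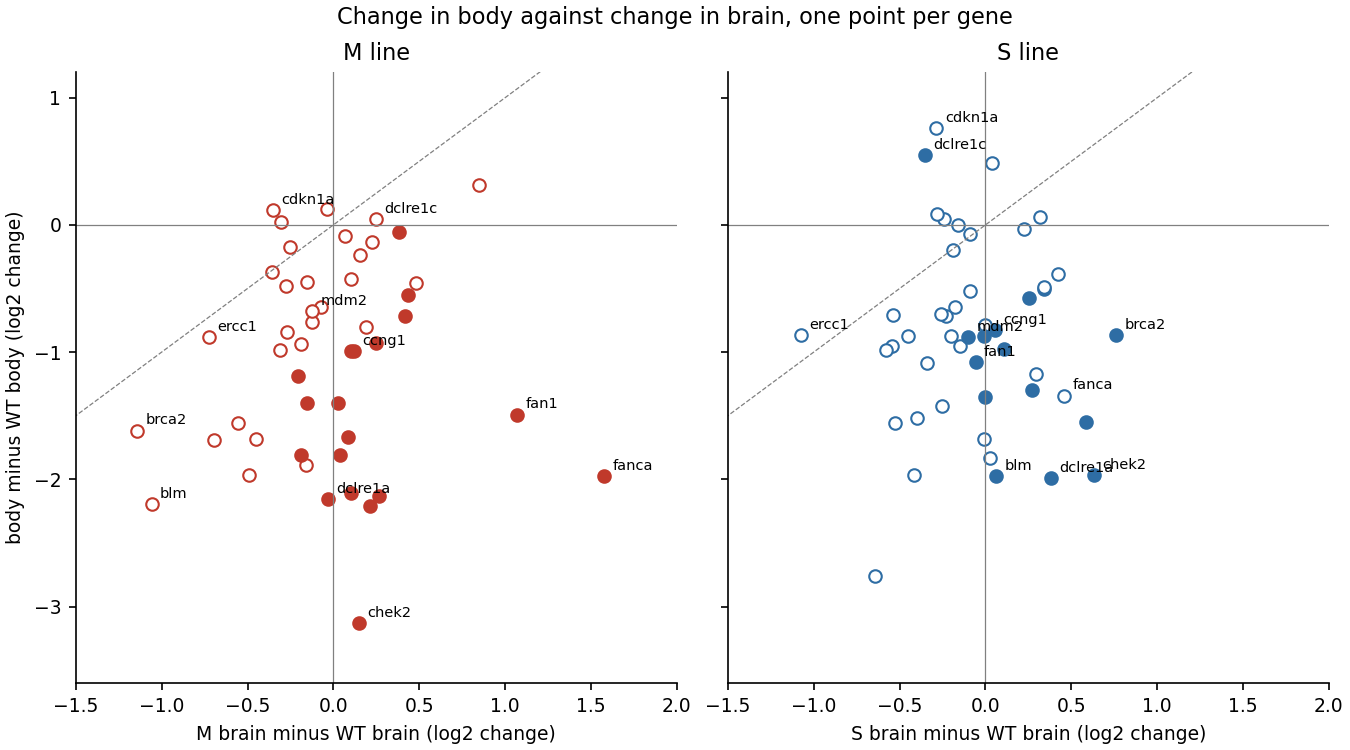
Log2 change in bodies (vertical) against log2 change in brains (horizontal) for each gene tested in both, M left and S right; filled points have a difference between tissues with an adjusted p below 0.05, and the dashed line marks equal change. The filled points lie below the line, except dclre1c in S, and fan1 lies to the right in M, at a brain change of 1.07.

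Other genes of DNA repair, from a separate list of 77, are given next. In bodies 49 of 75 tested were lower and 1 higher in M, and 47 lower and 2 higher in S, with medians of -0.72 and -0.65. That is 65.3% lower and 1.33% higher in M, against 20.7% and 12.4% of all genes. In S it is 62.7% and 2.67%, against 21.1% and 15.7%. mus81, a nuclease of branched DNA, fell by 3.26 in M (SE 0.368, edgeR adjusted p = 1.39e-05), ube2t, the ubiquitin-conjugating enzyme for Fancd2, by 3.29, rpa1, which coats single-stranded DNA, by 1.08 and topbp1, which activates Atr, by 2.23. In brains 3 of 71 were higher and 4 lower in M, and 1 higher and 4 lower in S. That is 4.23% higher and 5.63% lower in M, against 4.93% and 5.19% of all genes. In S it is 1.41% and 5.63%, against 5.59% and 4.73%. h2ax, the histone phosphorylated at breaks, averaged 12.7 CPM in M, 16.3 CPM in S and 22.4 CPM in WT brains; it fell by 0.82 in M (SE 0.132, edgeR adjusted p = 0.00188) and by 0.46 in S (SE 0.131, edgeR adjusted p = 0.0391).

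The other genes of the p53 pathway, a list of 35, gave no common direction in bodies. Of 34 tested, 8 were lower and 3 higher in M, and 9 lower and 5 higher in S, with medians of -0.09 and -0.14. That is 23.5% lower and 8.82% higher in M, against 20.7% and 12.4% of all genes. In S it is 26.5% and 14.7%, against 21.1% and 15.7%. gtse1, which binds p53 in dividing cells, fell by 2.37 in M (SE 0.327, edgeR adjusted p = 5.78e-05) and also passed as lower in S (edgeR adjusted p = 8.15e-05), and apaf1, the core of the apoptosome, fell by 1.42 and 1.64. In brains 3 of 33 were lower and 0 higher in M and 1 was higher and 0 lower in S. The share lower in M is 9.09%, against 5.19% of all genes, and the share higher in S is 3.03%, against 5.59%. The 3 in M were plk3, a stress kinase, with a fall of 0.41, tigarb, a sugar phosphatase, with 0.75, and pidd1, the scaffold of the PIDDosome, with 1.74 (edgeR adjusted p = 0.00966, 0.0107 and 0.0126).

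Replication and mitosis genes fell in 43 of 48 cases in M and 40 of 48 in S bodies. That is 89.6% and 83.3%, against 20.7% and 21.1% of all genes. In brains 2 of 41 were higher and 2 lower in M, and 2 lower in S. That is 4.88% higher and 4.88% lower in M, against 4.93% and 5.19% of all genes. In S the share lower is 4.88%, against 4.73%. mcm7, a subunit of the replicative helicase, rose by 1.68 in M brains (SE 0.219, edgeR adjusted p = 0.000665), and pcna, the sliding clamp of replication, fell by 0.53 in M (SE 0.0932, edgeR adjusted p = 0.00317) and by 0.33 in S brains (SE 0.0929, edgeR adjusted p = 0.0381).

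On the chromosome of ccser1 the RefSeq table placed 4 of the 54 members it holds: fancc, with 15 genes between it and ccser1, xpc with 59, dclre1b with 142 and ogg1 with 471. None of them passed in brains of either line; in bodies fancc fell in both lines and xpc in S.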

How the data were processed

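The authors deposited a table of raw read counts per gene for each tissue. The submitters' processing notes name STAR and 2 builds, GRCz10 and GRCz11, without their roles. Per the labels' protocols, the libraries were made from poly(A) RNA. Which counter, annotation and strand option were used is not given in the sources used here, and reads of overlapping genes may not be told apart. All columns of the tables belonged to samples of the series, and 0 were left unused. The members and the gene lists were chosen with earlier results of these data known.

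Counts were filtered with filterByExpr, scaled with TMM factors and tested in edgeR 4.0.16 (R 4.3.3) by the robust quasi-likelihood F test. The 3 groups of a tissue shared a fit, and a fit of all 29 libraries tested body minus brain. P-values were adjusted by Benjamini-Hochberg over all genes tested, with a threshold of 0.05. CPM were computed after TMM scaling. Of the 56 genes, 49 were tested in brain, 54 in body and 56 in the fit of both tissues. A gene is named if it was among the 8 called genes with the smallest p in a direction of a comparison, or is fan1, a p53 gene or a checkpoint kinase, and from each other list up to 4 genes with the smallest p in a comparison; other genes named were chosen after their values were seen. Alternatives used DESeq2 1.42.0, RLE factors, other filters, no robust step, a replicate block, only the groups compared, each library left out, and an oocyte score as covariate. Leaving out bodies low in gh1 and a replication and mitosis score were chosen after seeing the data. The edgeR script was tested on simulated counts. No 2 libraries of a group agreed within sampling noise; the lowest chi-square per degree of freedom was 4.34.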

Additional observations from a re-analysis of the deposited data

Results flagged for a closer look

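Of 95 groups of 4 or 6 libraries, over the 19 genes shown by library, 5 held a library far from the others; chance flags about 1 group in 20. fan1 had 39.8 CPM in M brain 1, with the nearest M brain at 28.0 CPM. fanca had 4.59 CPM in S brain 2, with the nearest at 1.39 CPM. blm had 9.06 CPM in S body 2, with the nearest at 5.41 CPM, and that body also had the highest oocyte sum of the S bodies, 1499 CPM. dclre1c had 6.88 CPM in WT body 3, with the nearest at 5.74 CPM. cdkn1a had 5.14 CPM in M brain 4, with the nearest at 1.19 CPM.

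The log2 change in body minus that in brain passed the edgeR test in M for 22 genes. Among crosslink repair genes it was -2.60 for fan1, -2.17 for dclre1a, -3.58 for fanca, -3.79 for fancb, -1.78 for fancd2, -2.89 for fanci, -2.44 for fancl and -2.25 for fancm. In recombination and end joining it was -1.89 for rad51b, -2.45 for rad51c, -1.17 for wrn, -1.12 for xrcc5 and -1.20 for lig4. In the remaining repair roles it was -1.02 for xrcc1, -1.27 for lig1, -0.46 for lig3, -1.02 for parp2 and -1.66 for msh6. lig3 did not pass in M bodies, so its difference is not a called body fall. For the kinases it was -1.47 for atr, -3.42 for chek1 and -3.32 for chek2, and it was -1.13 for ccng1. chek1 was too low in brains to be tested there by itself.

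In S the difference passed for 18 genes. It was -1.09 for fan1, -2.43 for dclre1a, -3.66 for fancb, -1.42 for fancd2, -2.65 for fanci and -2.21 for fancl. It was -1.70 for brca2, -2.22 for rad54l, -2.10 for blm, -1.14 for xrcc5, -0.91 for parp2, -0.92 for msh3 and -1.63 for msh6. For chek2 it was -2.66, for mdm2 -0.84, for ccng1 -0.94 and for sesn1 -0.89, and dclre1c was the only gene above 0, at 0.83.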

How the results depend on the processing

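Fold changes of named genes kept their direction and side of the threshold in 2265 of the comparisons with an alternative; 120 lost the call, 3 gained it and 29 changed sign. In M brains the 1 higher gene became 3 with DESeq2 and 2 with only the groups compared, which left 2 lower in place of 4. In S brains 0 higher became 1 with either. Over all genes the 923 higher in M brains became 1145 and 548 in these runs, and the 972 lower became 1249 and 638. The 1048 higher in S brains became 1273 and 1100. The replicate block left 2 of 5 genes higher in M than S brains, 2 of 4 lower in M than S bodies, and 11 of 17 lower in S body minus brain. Over all genes these 3 counts went from 870 to 716, from 771 to 670 and from 1440 to 1030. Whether replicate numbers pair libraries of different lines is not stated. With group means taken off, same-number libraries had a median r of 0.126 in bodies, where 10 of 18 pairs were above 0.1. In brains the median r was -0.019, and 2 of 10 pairs were above 0.1. The 42 lower genes of each body comparison became 1 in M and 2 in S with the oocyte score, 2 in each with the replication and mitosis score, and 24 in M and 25 in S without the bodies low in gh1, and the 3 higher in S became 0 in all these. Over all genes the 3178 higher in S became 138, 122 and 1262, in the same order of runs. M against S bodies gave 2 higher with DESeq2, 1 with no filter, with the filter at 1 CPM and with only the groups compared, and 2 with the replication and mitosis score. The 4 lower became 2 with no filter, 8 with only the groups compared and 2 without bodies low in gh1. Over all genes the 871 higher became 1333, 937, 956, 1069 and 1187 in those runs, and the 771 lower became 745, 1026 and 627. Body minus brain gave 2 higher in M with DESeq2 or RLE and 2 in S with DESeq2. Over all genes the 816 higher in M became 2055 and 1470, and the 617 higher in S became 1504. Without bodies low in gh1 body minus brain gave 9 lower in M, and 5 lower and 0 higher in S. Of all 22104 genes tested there, 760 were lower in M, against 1951 of 22442 with all bodies.

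With each library left out in turn, counts of higher and lower genes ran from 1 to 4 and 3 to 4 in M brains, 0 to 1 and 1 to 3 in S brains, and 1 to 5 and 2 to 3 in M against S brains. Over all genes they ran from 500 to 1233 and 546 to 1357 in M brains. In S brains the ranges over all genes were 537 to 1229 and 358 to 1041, and in M against S brains 474 to 1077 and 593 to 1405. In bodies the counts of these genes ran from 0 to 0 and 37 to 43 in M, 3 to 3 and 38 to 43 in S, and 0 to 1 and 2 to 6 in M against S. Over all genes they ran from 1755 to 3739 and 3361 to 4725 in M bodies. In S bodies the ranges over all genes were 2305 to 4277 and 3486 to 4892, and in M against S bodies 626 to 996 and 573 to 923. For body minus brain the counts of these genes ran from 0 to 1 and 16 to 30 in M, and 0 to 1 and 10 to 30 in S, where 10 or 11 were lower without a WT brain, 28 without WT body 3 and 30 without WT body 6. Over all genes the counts in M ran from 560 to 1388 higher and 1377 to 2751 lower.

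Signs changed at small values when 1 library was left out. Log2 changes then ran in M brains from -0.090 to 0.174 for atr, -0.0060 to 0.171 for bbc3 and -0.138 to 0.143 for sesn3, and in S brains from -0.126 to 0.010 for fan1 and -0.026 to 0.153 for ccng1. In M bodies they ran from -0.020 to 0.063 for mdm4 and -0.051 to 0.230 for cdkn1a, and in S bodies from -0.124 to 0.029 for sesn3. In M bodies cdkn1a was -0.28 with the oocyte score, -0.16 without bodies low in gh1 and -0.70 with the replication and mitosis score; atm in S was 0.055, 0.015 and 0.161 there. With the replication and mitosis score M gave 0.11 for fancd2, 0.15 for atr and 0.021 for chek1, and S gave 0.062 for fancd2, 0.030 for rad54l, 0.31 for atr, 0.38 for chek1 and 0.25 for chek2. The cause was not tested. Low counts limit exo1, fanca and cdkn1a in brains.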
